A study of Mus musculus with 9 samples.

Results

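The tumour necrosis factor (TNF) ligands and their receptors were represented by 85 of the 45281 probes of the array, which stood for 45 of its 28894 gene names. The members were all probes whose target name began with Tnfrsf or Tnfsf, or was Tnf, Lta, Ltb, Ltbr, Fas, Fasl, Cd40, Cd40lg, Cd27, Cd70, Ngfr, Edar, Eda2r or Relt. Of these, 30 probes of 21 genes were detected, that is, had a detection value above 0.99 on at least 3 of the 9 arrays, and were tested. The detected share was 35.29% of the member probes and 39.12% of all probes on the array. RNA was profiled on Illumina MouseWG-6 v2.0 BeadChips from FACS-sorted Lgr5+ basal, Lgr5- basal and luminal cells of the mammary gland, with 3 arrays per population. All 3 populations came from 10-week-old virgin C57BL/6 mice with the Lgr5-GFP-IRES-CreERT2 genotype, so the reporter allele was shared by every group. This allele places GFP and a tamoxifen-inducible Cre under control of the Lgr5 locus. Its zygosity, how many mice made up a pool and which other markers gated the sort are not stated. Each array carries a pool number, and pools 1, 2 and 3 each supplied 1 array of every population.

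TNF family ligands are mostly trimeric membrane proteins that can be shed. Their receptors signal through TRAF adaptors to NF-kB, or, where they hold a death domain, to caspases, while decoy receptors bind ligand without signalling. In the mammary gland the family is best known for RANKL (Tnfsf11), which hormone-sensing luminal cells make in response to progesterone, for its receptor RANK (Tnfrsf11a), and for osteoprotegerin (Tnfrsf11b), a soluble decoy that binds RANKL.

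Promoters are printed for Tnf and Tnfsf11, 2 of the ligands that were higher in luminal cells, and for Tnfrsf19, the receptor that differed between the basal populations. They are the 300 bases around a gene's start (250 before, 50 after) in RefSeq for GRCm38.p6, 5′ to 3′ on the gene's strand. Capitals mark matches, on either strand, to GGGANNNNCC (a short form of the NF-kB site) or TCAAAG (the core of a TCF/LEF site). Tnf lies at chr17:35201958-35202257 (minus strand), Tnfsf11 at chr14:78307994-78308293 (minus strand) and this start of Tnfrsf19 at chr14:61037938-61038237 (minus strand). A second start of Tnfrsf19, at chr14:61046806-61047105, held no match. The promoter listed for Tnfsfm13, the further ligand that was higher in luminal cells, is not printed and held no match either.
Tnf: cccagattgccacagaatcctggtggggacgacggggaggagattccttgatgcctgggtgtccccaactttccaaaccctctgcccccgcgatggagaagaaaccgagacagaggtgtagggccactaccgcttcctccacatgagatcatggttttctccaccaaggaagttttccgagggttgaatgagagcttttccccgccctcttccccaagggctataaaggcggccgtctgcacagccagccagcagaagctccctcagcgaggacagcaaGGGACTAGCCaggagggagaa
Tnfsf11: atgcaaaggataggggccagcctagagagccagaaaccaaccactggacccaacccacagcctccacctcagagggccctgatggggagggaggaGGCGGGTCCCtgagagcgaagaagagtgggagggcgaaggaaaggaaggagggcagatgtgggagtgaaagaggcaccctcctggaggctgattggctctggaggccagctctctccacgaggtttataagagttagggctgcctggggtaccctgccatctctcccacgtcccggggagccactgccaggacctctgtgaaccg
Tnfrsf19: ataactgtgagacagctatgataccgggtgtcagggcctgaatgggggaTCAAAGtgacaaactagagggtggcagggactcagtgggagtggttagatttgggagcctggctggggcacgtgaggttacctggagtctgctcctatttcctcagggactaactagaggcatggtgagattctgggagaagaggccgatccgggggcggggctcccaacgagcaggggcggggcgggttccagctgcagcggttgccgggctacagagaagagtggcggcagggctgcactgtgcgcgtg

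Promoters were listed for 15 of the 21 tested genes. The short NF-kB form was found in 4 of these 15 genes (Relt, Tnf, Tnfrsf25 and Tnfsf11) and in 20.7% of all 32851 promoters. The stricter kappaB consensus, searched after the matches of the short form were known, was found in 0 of the 15 and in 4.51% of all promoters, so none of the capitals in Tnf and Tnfsf11 meets it. TCAAAG was found in 3 of the 15 (Fas, Tnfrsf19 and Tnfrsf25) and in 5257 of all promoters, and the AP-1 motif TGANTCA in 1 of the 15 (Fas) and in 7.81%. A match describes letters in these windows and is not a binding site.

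The whole series bears on these results as follows. Lgr5 itself was detected on all Lgr5+ basal and Lgr5- basal arrays and on 0 luminal arrays. It was 1.65 higher in Lgr5+ basal than in Lgr5- basal cells on the log2 scale (limma adjusted p = 0.02463), a direction that the sort on Lgr5 sets beforehand. Lgr5 was also 3.44 higher in Lgr5- basal than in luminal cells (limma adjusted p = 2.73e-06). All 8 basal markers were higher and all 8 luminal markers lower in both basal populations than in luminal cells. Luminal replicate 2 had the highest median log2 level of the basal markers among luminal arrays, 8.01 against 5.70 and 5.89 on luminal replicates 1 and 3. Lgr5+ basal replicate 2 had the highest median log2 level of the endothelial markers, 9.18 against 7.91 and 6.84 on replicates 1 and 3 of that population. The values below are the authors' log2 intensities, differences are between group means, and p-values are from limma fitted to all tested probes and measure the spread between pools. Levels are compared for one probe across arrays, never between probes. In sorted bulk samples, fewer cells that express a gene and less RNA per cell cannot be told apart.

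Between the 2 basal populations the family differed at 1 gene, and between basal and luminal cells at most of the detected ones. Tested with 1 probe per gene, 8 of 21 genes were higher and 6 lower in Lgr5+ basal than in luminal cells, where 5963 of all 12148 passed. For Lgr5- basal over luminal cells 8 were higher and 5 lower, where 5429 of all 12148 passed. The counts that follow are of probes, and some genes have several. In Lgr5+ against Lgr5- basal cells 1 of the 30 tested member probes passed an adjusted p of 0.05, where 0.965% of all tested probes did (0.474% higher and 0.491% lower); the member probe was lower. In Lgr5+ basal against luminal cells 10 member probes were higher and 9 lower, where 22.8% and 25.2% of all tested probes were (48.0% in both directions, against 19 of 30). In Lgr5- basal against luminal cells 13 were higher and 8 lower, where 20.7% and 21.8% of all tested probes were (42.6% in both directions, against 21 of 30). The groups did not overlap for 21 and 24 member probes in the luminal comparisons, and for 54.0% and 53.9% of all tested probes. Both luminal comparisons use the same 3 luminal arrays. The median member difference was -0.15, 0.34 and 0.59 in these comparisons in turn, and the median over all tested probes lay between -0.05 and -0.00. Of the member probes, 3 were detected in 1 population only (Tnfsf11, Tnfrsf19 and a probe of Tnf) and 4 in the basal populations only (Cd70, Tnfrsf25 and a probe each of Fas and Tnfrsf18), so these passed the detection filter through the group in which they were high. Without that filter, 1, 20 and 21 of all 85 member probes passed, against 0.252%, 18.1% and 16.3% of all probes. The size of a difference near background depends on the background correction in the authors' values: without it, all 28 differences past the threshold (1 probe per gene) kept their direction and 26 still passed, but 23 were smaller by more than 1.5 times. Folds, also those written as at least N-fold, hold for the corrected values only.

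**Figure D1:**
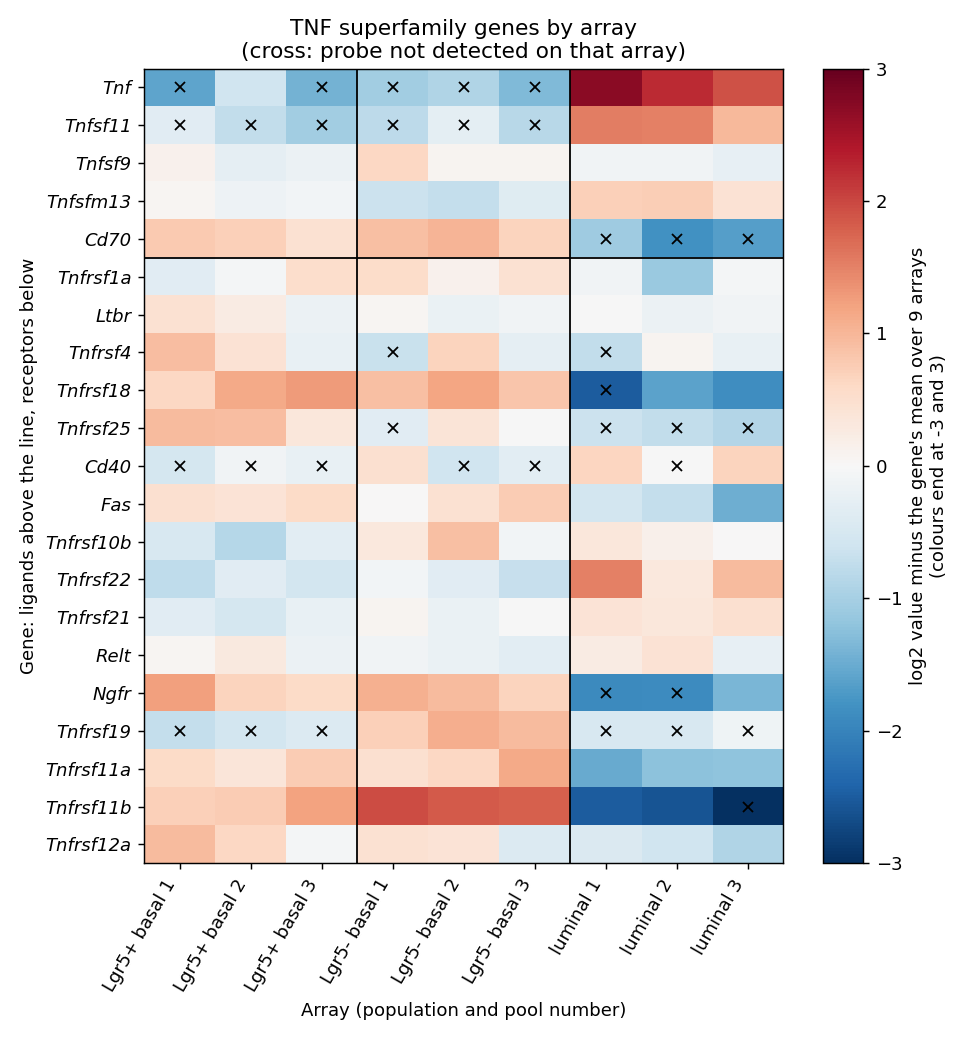
Log2 value of each of the 21 detected genes (1 probe per gene, the one with the highest mean) on each of the 9 arrays, as the difference from that gene's mean over the arrays; crosses mark arrays on which the probe was not detected. Tnf and Tnfsf11 are red on the 3 luminal arrays, and Tnfrsf11b, Tnfrsf18, Ngfr and Cd70 are blue there.

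Of the ligands, Tnf, Tnfsf11 and the probe named Tnfsf12-Tnfsf13 were lower in both basal populations than in luminal cells, and Cd70 was higher. Tnf, the founding inflammatory cytokine of the family, had log2 values of 4.64, 5.62 and 4.79 in Lgr5+ basal cells, 5.17, 5.32 and 4.88 in Lgr5- basal cells, and 8.92, 8.44 and 8.12 in luminal cells. The luminal values lay above all others, and the probe was detected on 1 Lgr5+ basal array, 0 Lgr5- basal arrays and 3 luminal arrays. Tnf was lower, at -3.48 (SE 0.286) in Lgr5+ basal relative to luminal cells (limma adjusted p = 2.535e-06), or -1.57 without background correction, and no fold is given since 2 of the 3 Lgr5+ basal arrays did not detect it. It was at least 8.84-fold lower in Lgr5- basal than in luminal cells (limma adjusted p = 3.267e-06), with group means of 5.12 and 8.49. A second Tnf probe was at least 7.54-fold and at least 8.03-fold lower (limma adjusted p = 2.518e-07 and 2.115e-07). Of 19 haematopoietic markers on the array, 17 were detected on no luminal array, among them Ptprc, Cd3e, Itgam, Adgre1 and Csf1r. The others were detected on some luminal arrays, and 0 on all 3. The summed linear level of the 19 markers was 738.5 to 1135 in Lgr5+ basal, 766.9 to 879.4 in Lgr5- basal and 564.2 to 713.4 in luminal samples. The part of haematopoietic cells in the Tnf difference was not tested.

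Tnfsf11, which encodes RANKL, had log2 values of 5.33, 4.93 and 4.62 in Lgr5+ basal cells, 4.88, 5.37 and 4.83 in Lgr5- basal cells, and 7.21, 7.18 and 6.64 in luminal cells. It was detected on all 3 luminal arrays and on no basal array. Tnfsf11 was at least 2.96-fold lower in Lgr5+ basal than in luminal cells (means 4.96 and 7.01; limma adjusted p = 4.658e-05) and at least 3.16-fold lower in Lgr5- basal than in luminal cells (means 5.03 and 7.01; limma adjusted p = 6.099e-05). Cd70, the ligand of Cd27, ran the other way. Its log2 values were 7.34, 7.29 and 7.03 in Lgr5+ basal cells, 7.47, 7.58 and 7.23 in Lgr5- basal cells, and 5.49, 4.74 and 4.91 in luminal cells. It was detected on all 6 basal arrays and on no luminal array, and was at least 3.24-fold higher in Lgr5+ basal than in luminal cells (means 7.22 and 5.04; limma adjusted p = 1.11e-05). In Lgr5- basal cells the bound was at least 3.73-fold above luminal cells (means 7.42 and 5.04; limma adjusted p = 5.455e-06). Its receptor Cd27 was not detected by any of 3 probes.

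The probe named Tnfsf12-Tnfsf13, listed by RefSeq as Tnfsfm13, reads a transcript that joins the genes of TWEAK and APRIL. Its log2 values were 9.46, 9.26 and 9.33 in Lgr5+ basal cells, 8.76, 8.68 and 9.04 in Lgr5- basal cells, and 10.12, 10.15 and 9.85 in luminal cells, and the 3 populations did not overlap. It was lower, at -0.69 (SE 0.170) in Lgr5+ basal and at -1.21 (SE 0.170) in Lgr5- basal relative to luminal cells (limma adjusted p = 0.006406 and 0.0001659). Its difference of 0.52 between Lgr5+ and Lgr5- basal cells did not pass (limma adjusted p = 0.1803). Whether this probe also reads the separate Tnfsf12 or Tnfsf13 transcripts was not tested. Tnfsf9, the ligand of 4-1BB, was detected on every array at 6.64 ± 0.21 in Lgr5+ basal, 7.01 ± 0.31 in Lgr5- basal and 6.59 ± 0.07 in luminal cells (SD, n = 3) and passed in no comparison.

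**Figure D2:**
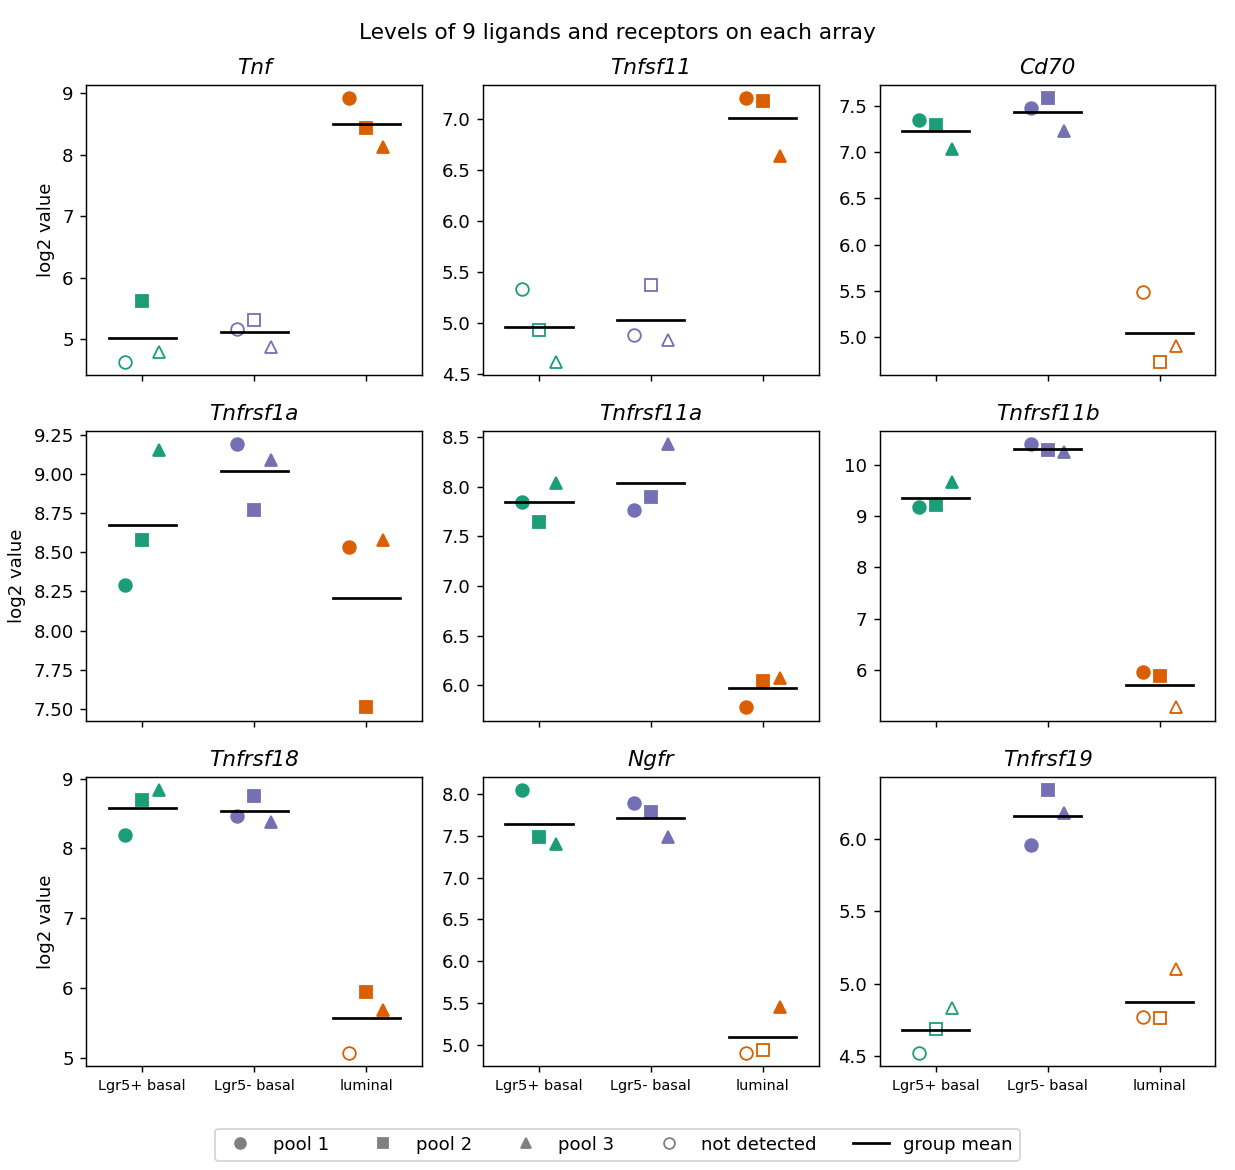
Log2 value of 9 ligands and receptors on each array by population, with pool number as the symbol, the group mean as a line and open symbols where the probe was not detected; each panel has its own axis. Tnf and Tnfsf11 are high in luminal cells, Cd70, Tnfrsf11a, Tnfrsf11b, Tnfrsf18 and Ngfr are high in both basal populations, and Tnfrsf19 is detected in Lgr5- basal cells only.

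The receptors of RANKL were on the other side from the ligand. Tnfrsf11b, the decoy osteoprotegerin, had log2 values of 9.18, 9.23 and 9.68 in Lgr5+ basal cells, 10.42, 10.31 and 10.26 in Lgr5- basal cells, and 5.96, 5.87 and 5.26 in luminal cells. No population overlapped another, and the probe was detected on 2 of the 3 luminal arrays. It was 3.66 higher (SE 0.219, 12.7-fold) in Lgr5+ basal than in luminal cells and 4.63 higher (24.7-fold) in Lgr5- basal than in luminal cells (limma adjusted p = 2.518e-07 and 6.333e-08). Between Lgr5+ and Lgr5- basal cells the difference was -0.97, with pool values of -1.24, -1.08 and -0.58, and it did not pass (limma adjusted p = 0.07673). It did pass without background correction (limma adjusted p = 0.01165), on BeadChip 1 alone (0.02479), without Lgr5+ basal replicate 3 (0.01998) and without luminal replicate 3 (0.04305). With the pool as a replicate block it did not pass (limma adjusted p = 0.1053), nor with the BeadChip as a block (0.06996). Leaving out each array in turn gave limma adjusted p-values up to 0.2669.

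Tnfrsf11a, the signalling receptor RANK, had log2 values of 7.85, 7.64 and 8.04 in Lgr5+ basal cells, 7.77, 7.90 and 8.43 in Lgr5- basal cells, and 5.78, 6.05 and 6.08 in luminal cells. It was detected on all 9 arrays, and all basal values lay above the luminal ones. The difference was 1.87 (SE 0.207, 3.66-fold) in Lgr5+ basal and 2.06 (4.18-fold) in Lgr5- basal over luminal cells (limma adjusted p = 2.645e-05 and 1.213e-05). The basal populations overlapped, with a difference of -0.19 (limma adjusted p = 0.7298).

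Ngfr, the p75 neurotrophin receptor, had log2 values of 8.05, 7.49 and 7.40 in Lgr5+ basal cells, 7.89, 7.78 and 7.48 in Lgr5- basal cells, and 4.90, 4.94 and 5.45 in luminal cells. Of 3 Ngfr probes 1 was tested, and the others were detected on 0 arrays. The tested probe was detected on all 6 basal arrays and on 1 luminal array, so no fold is given. It was 2.55 higher in Lgr5+ basal and 2.62 higher in Lgr5- basal than in luminal cells (limma adjusted p = 5.109e-06 and 4.162e-06), and 0.98 and 1.02 higher without background correction. Schwann cells also express Ngfr. Of 5 tested Schwann cell markers, 4 were higher and 1 lower in Lgr5+ basal than in luminal cells, and 3 were higher and 1 lower in Lgr5- basal than in luminal cells, with medians of 0.83 and 0.72. Of the 8 listed, S100b, Cdh19 and Foxd3 were detected on no array, and the summed linear level of the list was 3911 to 4563 in Lgr5+ basal, 4346 to 4526 in Lgr5- basal and 2327 to 3568 in luminal samples. The part of these cells in the Ngfr difference was not tested.

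Among receptors best known from lymphocytes, Tnfrsf18, or GITR, had log2 values of 8.19, 8.69 and 8.84 in Lgr5+ basal cells, 8.46, 8.75 and 8.38 in Lgr5- basal cells, and 5.07, 5.95 and 5.69 in luminal cells, of which 2 arrays detected it. It was 3.00 higher (8.01-fold) in Lgr5+ basal and 2.96 higher (7.77-fold) in Lgr5- basal than in luminal cells (limma adjusted p = 3.206e-06 and 3.622e-06), and a second probe, detected on no luminal array, was at least 6.38-fold and at least 6.61-fold higher. The haematopoietic marker Cd3e, a T cell receptor component, was also higher in both basal populations, at least 1.95-fold in Lgr5+ basal and at least 3.59-fold in Lgr5- basal over luminal cells (limma adjusted p = 1.433e-05 and 4.9e-07). The other T cell markers of the list, Cd3g and Cd2, were detected on no array, and the part of T cells in the Tnfrsf18 difference was not tested. Tnfrsf25, the death receptor DR3, had log2 values of 6.34, 6.33 and 5.73 in Lgr5+ basal cells, 5.05, 5.79 and 5.38 in Lgr5- basal cells, and 4.76, 4.67 and 4.53 in luminal cells. It was at least 1.53-fold higher in Lgr5+ basal than in luminal cells, where it was detected on no array (means 6.14 and 4.66; limma adjusted p = 0.0003502). In Lgr5- basal cells it was detected on 2 arrays, with a mean of 5.41, which gives no bound above luminal cells. That comparison passed (limma adjusted p = 0.02297), but neither without background correction (0.08964) nor on BeadChip 1 alone (0.06976). Tnfrsf4, or OX40, passed in no comparison, at 6.15 ± 0.57, 5.68 ± 0.68 and 5.47 ± 0.41 in Lgr5+ basal, Lgr5- basal and luminal cells (SD, n = 3). Cd40, detected on 3 of the 9 arrays, was at 4.98 ± 0.23, 5.10 ± 0.57 and 5.69 ± 0.39 and passed in none either.

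Tnfrsf12a, or Fn14, the receptor of TWEAK, had log2 values of 13.15, 12.81 and 12.14 in Lgr5+ basal cells, 12.65, 12.61 and 11.78 in Lgr5- basal cells, and 11.76, 11.59 and 11.29 in luminal cells. In each population the value of pool 3 was the lowest. It was 1.16 higher (2.23-fold) in Lgr5+ basal than in luminal cells (limma adjusted p = 0.008596). The difference of 0.80 in Lgr5- basal over luminal cells did not pass (limma adjusted p = 0.05174) but passed with the pool as a replicate block (0.004146).

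Death receptors were split. Fas, which triggers apoptosis, had log2 values of 8.87, 8.80 and 8.97 in Lgr5+ basal cells, 8.40, 8.85 and 9.14 in Lgr5- basal cells, and 7.84, 7.68 and 6.92 in luminal cells. It was 1.40 higher (2.64-fold) in Lgr5+ basal and 1.32 higher in Lgr5- basal than in luminal cells (limma adjusted p = 0.001155 and 0.001824). Other Fas probes gave different sizes, at least 3.54-fold and at least 4.05-fold for one that no luminal array detected, and 0.43 (not passing, limma adjusted p = 0.1371) and 0.86 for another. Tnfrsf1a, the main receptor of TNF, had log2 values of 8.29, 8.58 and 9.15 in Lgr5+ basal cells, 9.19, 8.77 and 9.09 in Lgr5- basal cells, and 8.53, 7.51 and 8.58 in luminal cells. Its brightest probe did not pass in Lgr5- basal over luminal cells (0.81, limma adjusted p = 0.05597) but did with the pool as a replicate block (0.02897), and the other probes passed without it at 0.94 and 0.88 (limma adjusted p = 0.01578 and 0.0243). In Lgr5+ basal over luminal cells no Tnfrsf1a probe passed. The brightest was at 0.46 and the others at 0.40 and 0.56 (limma adjusted p = 0.2446, 0.2484 and 0.1157).

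Tnfrsf21, or DR6, and Tnfrsf22, a decoy receptor of TRAIL in the mouse, were lower in both basal populations. Tnfrsf22 had log2 values of 6.09, 6.49 and 6.30 in Lgr5+ basal cells, 6.75, 6.5 and 6.15 in Lgr5- basal cells, and 8.36, 7.15 and 7.78 in luminal cells. It was lower, at -1.47 in Lgr5+ basal and at -1.29 in Lgr5- basal relative to luminal cells (limma adjusted p = 0.001571 and 0.003801). Tnfrsf21 had log2 values of 10.89, 10.71 and 11.01 in Lgr5+ basal cells, 11.31, 11.03 and 11.22 in Lgr5- basal cells, and 11.65, 11.58 and 11.71 in luminal cells. It was lower, at -0.78 in Lgr5+ basal and at -0.46 in Lgr5- basal relative to luminal cells (limma adjusted p = 0.002217 and 0.03877), and a second probe gave -1.74 and -0.75. The Lgr5- basal difference of the brightest probe did not pass on BeadChip 1 alone (limma adjusted p = 0.1426). It also did not pass without Lgr5- basal replicate 1, 2 or 3 (limma adjusted p = 0.0546, 0.1458 and 0.08249). Nor did it pass without luminal replicate 1 or 3 (limma adjusted p = 0.08519 and 0.09259).

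Tnfrsf10b, the mouse TRAIL receptor, had log2 values of 6.77, 6.40 and 6.93 in Lgr5+ basal cells, 7.56, 8.15 and 7.17 in Lgr5- basal cells, and 7.59, 7.39 and 7.25 in luminal cells. All Lgr5+ basal values lay below the others. The difference of -0.71 in Lgr5+ basal over luminal cells passed (limma adjusted p = 0.03702). It did not pass without background correction (limma adjusted p = 0.06522) or without the detection filter (0.07799). Nor did it pass without Lgr5+ basal replicate 1 (limma adjusted p = 0.06513) or 2 (0.1359), or without luminal replicate 1 (0.1133) or 2 (0.07426). The difference of -0.93 in Lgr5+ over Lgr5- basal cells did not pass (limma adjusted p = 0.1252). A second, dimmer probe passed in no comparison, and the authors had set the brighter probe aside. Ltbr, the lymphotoxin receptor, was at 7.71 ± 0.32 in Lgr5+ basal, 7.45 ± 0.13 in Lgr5- basal and 7.43 ± 0.09 in luminal cells, and Relt at 6.70 ± 0.24, 6.45 ± 0.11 and 6.78 ± 0.35 (SD, n = 3). Both were detected on every array and passed in no comparison.

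**Figure D3:**
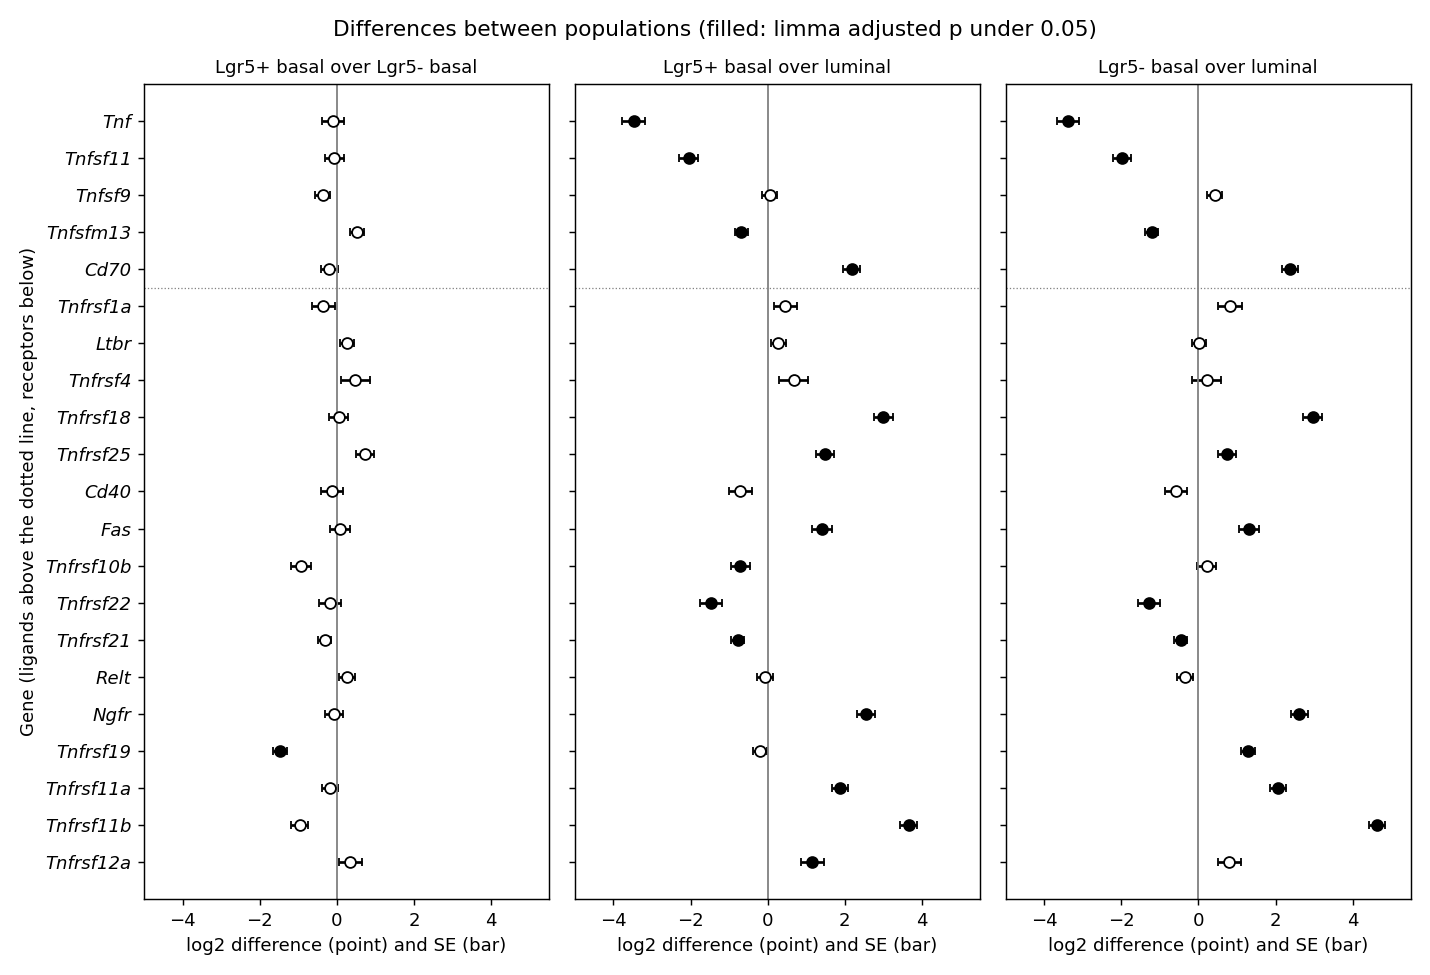
Log2 difference between group means (point) and its SE (bar) for the 21 detected genes in the 3 comparisons, filled where the limma adjusted p is under 0.05. In Lgr5+ over Lgr5- basal cells only Tnfrsf19 is filled, at -1.48, and in the luminal comparisons Tnfrsf11b is the highest, at 3.66 and 4.63.

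**Figure D4:**
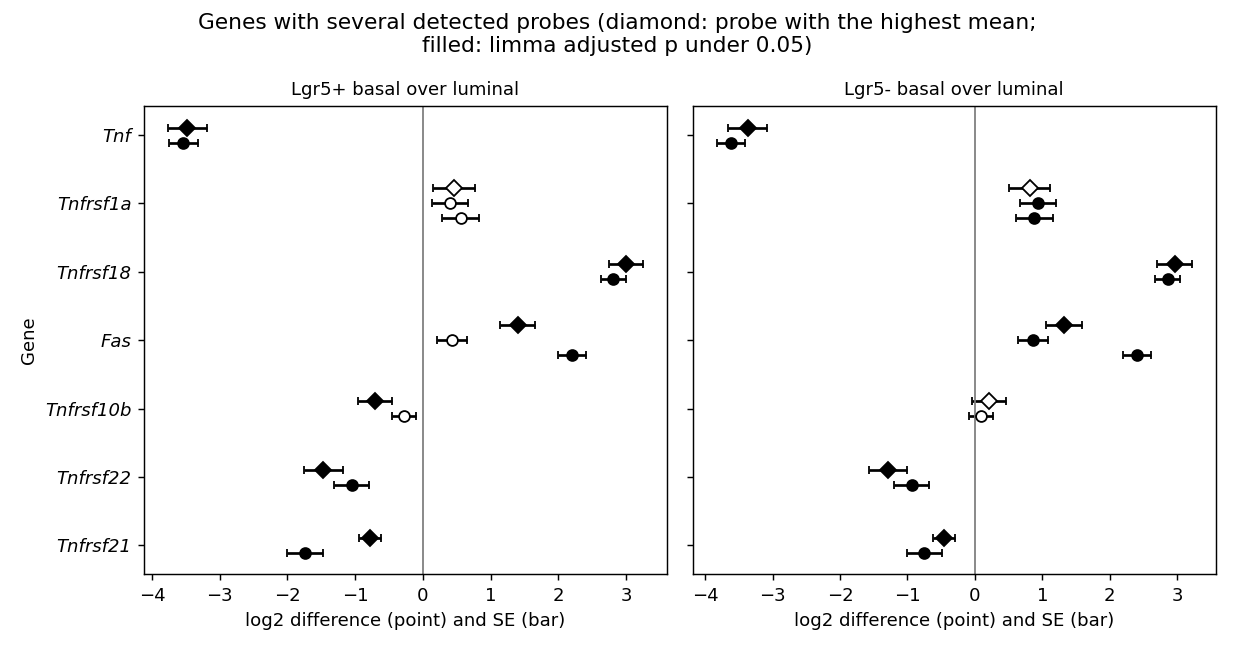
Log2 difference over luminal cells (point) and its SE (bar) for each detected probe of the 7 genes with several, filled where the limma adjusted p is under 0.05; diamonds are the probes with the highest mean. The probes of Tnf and Tnfrsf18 lie close together, and those of Fas range from 0.43 to 2.20 in Lgr5+ basal over luminal cells.

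Tnfrsf19 was the 1 member gene that differed between the basal populations. It encodes TROY, a receptor known as a Wnt target and a marker of Lgr5+ stem cells in the mouse intestine. Its log2 values were 4.52, 4.69 and 4.83 in Lgr5+ basal cells, 5.96, 6.34 and 6.18 in Lgr5- basal cells, and 4.77, 4.76 and 5.10 in luminal cells. The probe was detected on all 3 Lgr5- basal arrays and on no other array. A second Tnfrsf19 probe was detected on 0 arrays, with log2 values from 4.41 to 4.95, so the result rests on 1 probe. Tnfrsf19 was lower, at -1.48 (SE 0.178) in Lgr5+ relative to Lgr5- basal cells, at least 1.65-fold (means 4.68 and 6.16; limma adjusted p = 0.004126). Without background correction the difference was -0.42 (limma adjusted p = 0.03772). The pools gave -1.44, -1.65 and -1.35, and leaving out each array in turn gave adjusted p-values up to 0.03185. It was at least 1.55-fold higher in Lgr5- basal than in luminal cells (means 6.16 and 4.88; limma adjusted p = 0.0001478). The Lgr5+ basal and luminal values overlapped.

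Single markers of other cell types also differed between the basal populations. The summed linear level of the fibroblast markers was 4163 to 4949 in Lgr5+ basal and 10250 to 11060 in Lgr5- basal samples. Of 9 tested markers, 1 was lower in Lgr5+ than in Lgr5- basal cells (Dcn, -1.47, limma adjusted p = 0.004126) and 0 were higher, and their median difference was 0.07. Of 5 tested haematopoietic markers, Cd3e was lower (-0.88, limma adjusted p = 0.03839), and of 7 tested pericyte markers, Mcam was higher (1.04, limma adjusted p = 0.04702). The part of such cells in the Tnfrsf19 and Tnfrsf11b differences was not tested.

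In Lgr5+ against Lgr5- basal cells, 7 of the 30 member probes had groups that did not overlap, against 21.6% of all tested probes, and 6 had an unadjusted p under 0.05, against 15.3% of all tested probes. The number of member probes past the adjusted threshold was 4 without Lgr5+ basal replicate 3, where the count over all tested probes was 1292 in place of 171.

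Of the 45 genes, 24 had no tested probe. The ligands among them were Cd40lg, Fasl, Lta, Ltb, Tnfsf4, Tnfsf8, Tnfsf10, Tnfsf12, Tnfsf13b, Tnfsf14, Tnfsf15 and Tnfsf18, and the receptors included Tnfrsf1b, Cd27, Edar and Eda2r. Of the 55 untested probes, 48 were detected on 0 arrays, 6 on 1 and 1 (of Tnfsf13b, or BAFF) on 2. Some belonged to tested genes, namely Cd40, Fas, Ngfr, Relt, Tnfrsf10b, Tnfrsf19, Tnfrsf22, Tnfrsf25 and Tnfsfm13. For Tnfrsf18 and Tnfrsf25 the receptor was measured and its ligand, Tnfsf18 or Tnfsf15, was not detected. The same held for other receptors, among them Fas (Fasl), Tnfrsf10b (Tnfsf10), Tnfrsf4 (Tnfsf4) and Cd40 (Cd40lg). A probe that was not detected does not show that a gene was silent.

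Genes that act with the family were taken as 6 lists. Of 31 tested adaptors and signalling enzymes, 1 was higher and 0 were lower in Lgr5+ than in Lgr5- basal cells. This was Traf1, an adaptor that is itself induced by NF-kB, with log2 values of 6.59, 6.31 and 6.51 in Lgr5+ basal cells and 5.22, 5.11 and 5.29 in Lgr5- basal cells (1.26, limma adjusted p = 0.01131). The probe was detected on all 3 Lgr5+ basal arrays and on 1 Lgr5- basal array, so no fold is given. Leaving out 1 array raised that p to as much as 0.06504. The Traf1 level in luminal cells was 6.21 ± 0.29 (SD, n = 3). In the luminal comparisons 6 list members were higher and 8 lower in Lgr5+ basal cells, and 5 higher and 8 lower in Lgr5- basal cells. Of all tested probes, 22.8% were higher and 25.2% lower in Lgr5+ basal than in luminal cells. For Lgr5- basal over luminal cells these shares were 20.7% and 21.8%, and for Lgr5+ over Lgr5- basal cells 0.474% and 0.491%. The same shares stand beside the counts of the other lists below, which use 1 probe per gene. Traf5 was at least 1.72-fold higher in Lgr5+ basal than in luminal cells (limma adjusted p = 2.234e-05), and Mlkl, the executor of necroptosis, was lower, at -2.08 (limma adjusted p = 4.141e-05).

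Of 16 NF-kB subunits, inhibitors and kinases, 0 passed in Lgr5+ over Lgr5- basal cells, 3 were higher and 2 lower in Lgr5+ basal over luminal cells, and 1 was higher and 3 lower in Lgr5- basal over luminal cells. Ikbkg, the NEMO subunit, was lower, at -1.23 in Lgr5+ basal and at -1.22 in Lgr5- basal relative to luminal cells (limma adjusted p = 0.0001134 and 0.0001208). Of 17 genes known as NF-kB targets, 10 were higher and 3 lower in each basal population than in luminal cells, with median differences of 1.08 and 0.85. Icam1, an adhesion molecule, was 3.51 higher in Lgr5+ basal and 3.35 higher in Lgr5- basal than in luminal cells (limma adjusted p = 1.253e-06 and 1.7e-06). Plau, a protease detected on 1 luminal array, was 4.32 and 4.65 higher (limma adjusted p = 1.442e-06 and 7.899e-07). Tnfaip2 went the other way, at -3.66 and -3.19 (limma adjusted p = 1.979e-06 and 5.739e-06). Many of these targets are also set by other pathways. In Lgr5+ basal over luminal cells, 6 of 12 tested endothelial and 7 of 9 tested fibroblast markers were higher and 0 lower. In Lgr5- basal over luminal cells, 6 endothelial markers were higher and 1 lower, and 6 fibroblast markers were higher and 0 lower. The part of other pathways or of such cells in the target differences was not tested.

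The RANKL and progesterone list was mostly lower in basal cells. Of 11 tested members, 10 were lower and 1 higher in each basal population than in luminal cells, with medians of -4.07 and -3.90. Elf5, a transcription factor of luminal progenitors, was lower, at -4.43 in Lgr5+ basal and at -4.42 in Lgr5- basal cells (limma adjusted p = 1.626e-07 and 1.624e-07). The prolactin receptor Prlr was lower, at -4.75 and -4.61 (limma adjusted p = 1.82e-07 and 2.228e-07). The exception was Id2, which was 2.16 and 1.56 higher (limma adjusted p = 1.945e-06 and 2.485e-05). Pgr, Esr1, Prlr, Foxa1, Areg and Elf5 of this list were also chosen as markers of luminal cell types, so their direction adds nothing about the ligand. Of 6 neurotrophins and Ngfr partners, 4 were higher and 1 lower in each basal population. Bdnf, a ligand of Ngfr, was 2.97 and 3.07 higher (limma adjusted p = 1.855e-07 and 1.548e-07), while the co-receptor Sort1 was lower, at -3.73 and -3.56 (limma adjusted p = 8.497e-08 and 1.099e-07).

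Of 5 genes that control ligand shedding, Adam17, the protease that releases TNF, was lower, at -0.96 in Lgr5+ basal and at -0.98 in Lgr5- basal relative to luminal cells (limma adjusted p = 0.002005 and 0.001826). Timp3, an inhibitor of Adam17, was 4.47 and 4.35 higher (limma adjusted p = 6.039e-08 and 6.509e-08). In Lgr5+ over Lgr5- basal cells, 0 genes of the NF-kB, RANKL, neurotrophin and shedding lists passed the limma threshold, with list medians between -0.19 and 0.20.

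**Figure D5:**
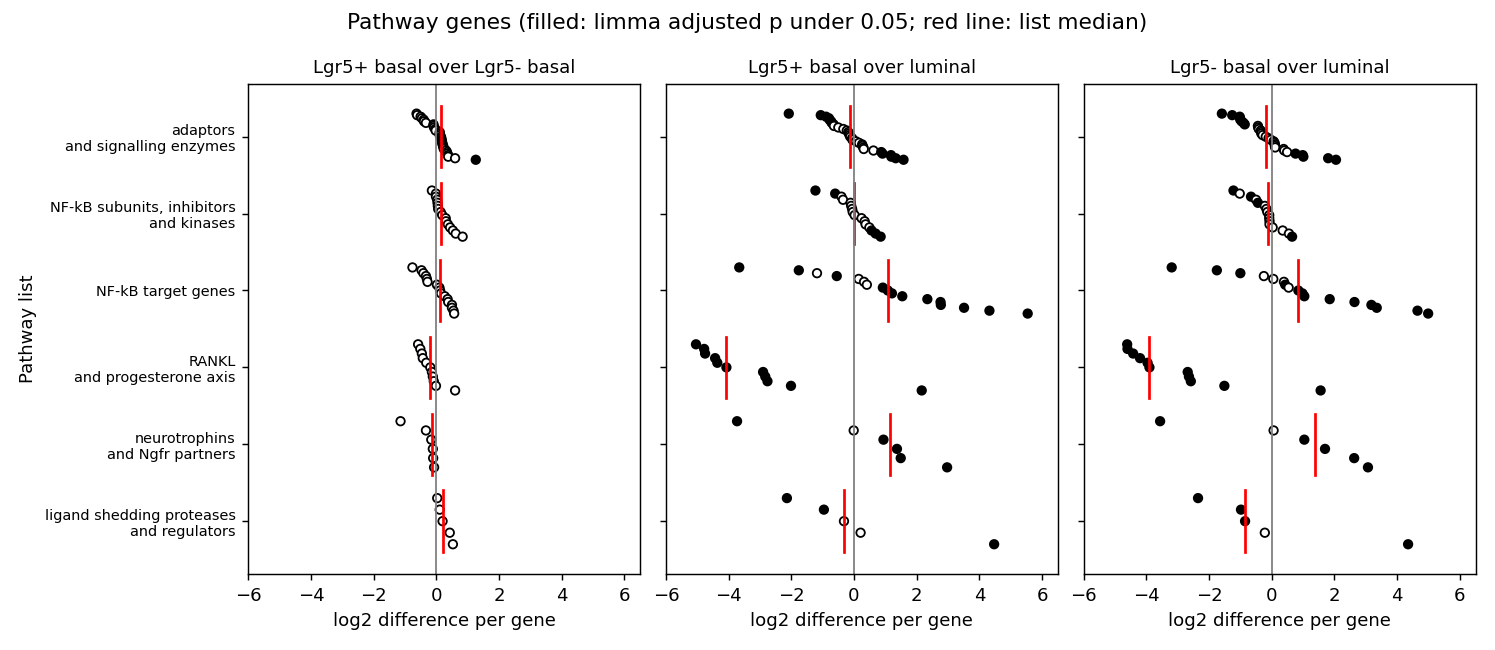
Log2 difference of each tested gene of the 6 pathway lists in the 3 comparisons, filled where the limma adjusted p is under 0.05, with the list median as a red line. In the luminal comparisons the RANKL and progesterone genes lie mostly below 0, with medians of -4.07 and -3.90, and in Lgr5+ over Lgr5- basal cells only Traf1 is filled.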

How the data were processed

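RNA of 9 samples was hybridised, 1 per array. The authors deposited raw summary intensity per probe on a linear scale, and log2 values. The deposited detection columns gave a fraction per probe, called a p-value in the header; it was close to 1 for bright probes, so 1 minus it was taken as the detection p. GenomeStudio and limma are named, without versions, in the submitters' processing notes. The deposited log2 values differed from a normexp (offset 16) and quantile recomputation by at most 0.0284 on any array, and were used as given.

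All 17712 probes detected on at least 3 arrays were fitted with limma 3.58.1 in R 4.3.3 on all 9 arrays (6 residual and 4.67 prior degrees of freedom), as pairwise contrasts, two-sided, with Benjamini-Hochberg adjustment over all tested probes and a threshold of 0.05. The steps were tested on simulated data. The probe with the highest mean stood for a gene. Where a probe was detected on no array of the lower group, that group was raised to the lowest detected signal of each array, and the fold is written as at least N-fold. The number of arrays limits the precision.

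Samples share a pool number across populations per the labels, which pairs them. After group means were removed, arrays of the same pool correlated at 0.0829 to 0.403 over probes. BeadChip 1 held pools 1 and 2, BeadChip 2 held pool 3, and each held all 3 populations.

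Members, lists and tests were chosen with earlier results of these data known. Every gene with a detected probe is named, as are up to 4 genes of each pathway list with the smallest p (some are left out for space). Tnfaip2, Id2, Cd3e, Mcam and Dcn were named after their values were seen. The stricter kappaB consensus was also added after the first motif search.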

Additional observations from a re-analysis of the deposited data

How the results depend on the processing

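The number of member probes past the threshold in Lgr5+ over Lgr5- basal cells was 1 under most alternatives, 2 without background correction and 4 on BeadChip 1 alone, and leaving out each array in turn gave 1 to 4 (4 without Lgr5+ basal replicate 3, 2 without luminal replicate 3). Tnfrsf19 was among them each time. In Lgr5+ basal over luminal cells the leave-one-out counts were 18 to 20, and in Lgr5- basal over luminal cells 17 to 23. Counting 1 probe per gene gave 13 in Lgr5- basal over luminal cells in place of 21, since fewer probes were tested. With the pool as a replicate block (the paired fit) the counts were 1, 20 and 22, and no count moved by more than 1.5 times. Beside the Tnfrsf12a and Tnfrsf1a results given above, the block changed the call of 2 member probes, a second Tnfrsf21 probe in Lgr5- basal over luminal cells (limma adjusted p = 0.05953) and a Tnfrsf1a probe in Lgr5+ basal over luminal cells (0.04494). Over all tested probes, Lgr5+ against Lgr5- basal cells gave 171 calls, 917 on BeadChip 1 alone, and 48 to 1292 when 1 array was left out, and the cause was not tested. Of the alternative values of single genes, 1149 stayed on the same side of the threshold, 22 newly passed and 17 no longer passed. Where the main or the alternative value passed, 0 reversed direction. Direction was not compared where neither passed. The short NF-kB motif matched 4 promoters of tested genes and the kappaB consensus, chosen after seeing the data, matched 0.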
